A study of Mus musculus with 4 samples.

Results

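Integrin alpha subunits that bind extracellular matrix were examined in Sca-1 cells from failing and healthy mouse hearts. The 10 genes were Itga1 and Itga2 for collagen, Itga3, Itga6 and Itga7 for laminin, Itga5, Itga8 and Itgav for fibronectin and other proteins with the RGD motif, and Itga4 and Itga9 for Vcam1 and several matrix proteins. All 28 of their probe sets among the 45037 of the array were taken by gene symbol. The genes themselves were chosen with earlier results of these arrays known. A probe set counts as read when its intensity reaches 50 on 2 or more arrays, and lower values are called near background. By this rule 8 of the 10 genes were read in these cells, and Itga2 and Itga4 were not. None of the 13 probe sets that were read passed the study's thresholds between failing and healthy hearts. These are a 2-fold change and an unadjusted p under 0.05. Over the array 0.851% of the probe sets read passed, so this count is no result about integrins.

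Cyc mice carry CyclinT1 and Gαq transgenes under the αMHC promoter on the FVB background and develop heart failure, and Wt mice are their wildtype littermates. All were 6 weeks old and of either sex. The promoter, that of Myh6, is known from cardiomyocytes, and Myh6 itself read 589.8 in Cyc1, 183.8 in Cyc2, 480.4 in Wt1 and 227.0 in Wt2. Sca-1 cells were sorted from whole hearts with magnetic beads, and each of 4 Affymetrix Mouse 430 2.0 arrays read the RNA of cells pooled from 2 to 3 hearts. The pools are called Cyc1, Cyc2, Wt1 and Wt2 by genotype and replicate number, and pools with the same number were taken as 1 experiment. The labels give 2 independent experiments without saying which pools belong to each.

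An integrin is a pair of 1 alpha and 1 beta chain that spans the cell membrane. The alpha chain largely sets which matrix protein is bound, while the short inner tails connect to talin, kindlins and the actin cytoskeleton. In the heart such receptors hold endothelial cells to the laminin and collagen of their basement membrane, and fibroblasts to the collagen and fibronectin around them. Most matrix-binding alpha chains pair with the beta chain of Itgb1, and that of Itgav also pairs with those of Itgb3, Itgb5, Itgb6 and Itgb8.

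Gnaq encodes Gαq. Of the 7 probe sets annotated with its symbol alone, 1 rose, with 723.6 in Cyc1, 492.3 in Cyc2, 22.7 in Wt1 and 4.1 in Wt2. The study lists further Gnaq probe sets and reports no other as changed. Neither of the 2 probe sets of Ccnt1, the gene of CyclinT1, passed the thresholds. The pools held the sorted antigen and genes of several cell types. Ly6a, which encodes Sca-1, ranged from 10561.6 to 14050.6. All 6 listed markers of endothelium and all 6 of fibroblasts were read, among them Cdh5 at 8279.8 or more and Dcn at 9031.3 or more. These are thus mixed cells, in which fewer cells of a type and less RNA per cell cannot be told apart. Airway genes stood apart, with a summed intensity of 5 genes of 17738.9 in Cyc2 and 3009.8 in Wt1 but 200.8 in Cyc1 and 49.7 in Wt2. Replicate 2 was the brighter one in both genotypes, with a median log2 intensity (16 added) over the probe sets read of 7.74 in Cyc1, 8.21 in Cyc2, 7.88 in Wt1 and 8.11 in Wt2. All p-values rest on how much these 4 pools vary, each being a pool of cells from several mice.

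**Figure D1:**
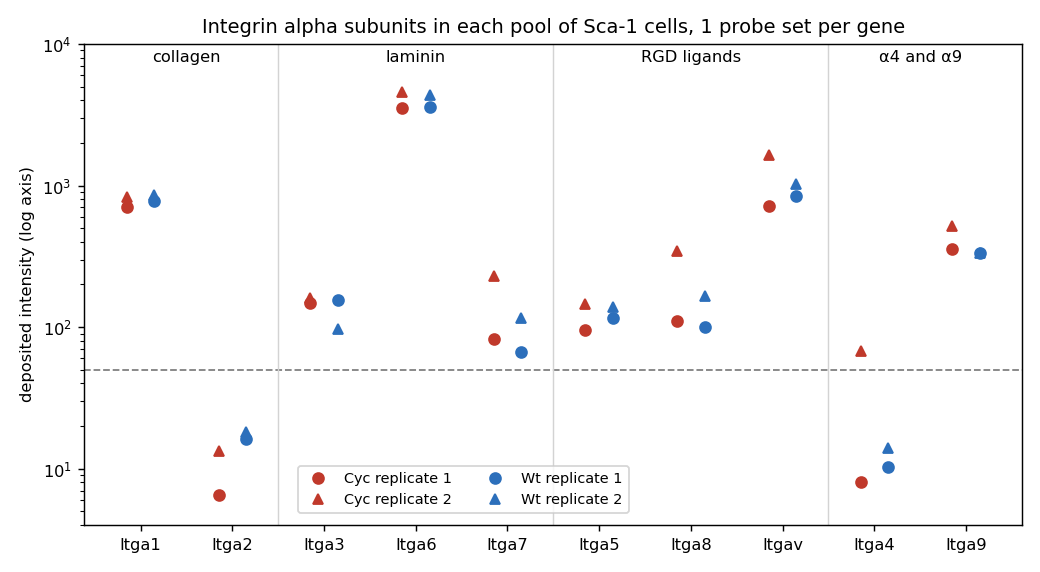
Deposited intensity (log axis) of the 10 integrin alpha genes at 1 probe set each, the one with the highest mean of its gene, in Cyc (red) and Wt (blue) pools, with circles for replicate 1 and triangles for replicate 2. Itga2 lies below the dashed line at 50 in all 4 pools and Itga4 in 3 of 4, while the other 8 genes lie above it in every pool. Levels of different genes are not comparable, since each probe set has its own response.

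Of the chains for collagen, Itga1 was read in all pools and Itga2 in none. Itga1 pairs with Itgb1 into a receptor of basement membrane and other collagens that is found on capillary endothelium and smooth muscle. Probe set 1455251_at read 710.1 in Cyc1, 831.8 in Cyc2, 776.0 in Wt1 and 853.7 in Wt2. The genotypes overlapped, and the log2 fold change (Cyc minus Wt, 16 added to intensities) was -0.08 ± 0.24 (SE). Its 95% confidence interval, from -0.70 to 0.54, leaves out a 2-fold change in either direction.

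The other probe set of Itga1, 1439713_at, was lower in both Cyc pools than in both Wt pools. It read 161.9 in Cyc1, 462.0 in Cyc2, 473.8 in Wt1 and 605.3 in Wt2. Such an order of the pools was found at 8.23% of all probe sets read on the array. The log2 fold change was -0.92 ± 0.53 and its interval, from -2.30 to 0.46, includes 0 (limma, adjusted p = 1). The difference was -1.46 within experiment 1 but only -0.38 within experiment 2. A fit that keeps the experiment as a block gave the same fold change an unadjusted p of 0.0247 and an adjusted p of 0.674 (limma), and the 2-fold threshold was missed. When Cyc2 was left out the value was -1.63 and passed (limma, unadjusted p = 0.00255), but in that fit 5.64% of all probe sets passed and 1050 of these 1167 were lower in Cyc. Whether both Itga1 probe sets differ was not tested, and the annotation does not say which part of the transcript each one reads.

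Itga2, another collagen-binding chain, known from platelets and epithelia, lay near background. Its only probe set read 6.5 in Cyc1, 13.3 in Cyc2, 16.2 in Wt1 and 18.0 in Wt2, so no fold change is given. In the mouse genome Itga1 and Itga2 are direct neighbours, with 0 annotated genes between them in RefSeq. Itga10, a collagen-binding chain outside the set, crossed 50 in experiment 2 alone. It read 44.9 in Cyc1, 95.8 in Cyc2, 37.0 in Wt1 and 79.7 in Wt2, with a log2 fold change of 0.21 ± 0.46.

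The laminin-binding chains Itga3, Itga6 and Itga7 were read in every pool. Itga6 is a chain of endothelial and epithelial cells on basement membrane. Probe set 1422445_at read 3536.9 in Cyc1, 4609.0 in Cyc2, 3591.2 in Wt1 and 4375.1 in Wt2. Both pools of replicate 2 were the brighter ones, and Cyc and Wt differed by -0.02 and 0.07 on the log2 scale within experiments 1 and 2. The fitted value was 0.03 ± 0.27 with an interval from -0.68 to 0.73, and that of the second probe set, 1422444_at, was 0.00 ± 0.37. That one read 1250.8 in Cyc1, 2169.2 in Cyc2, 1394.3 in Wt1 and 1955.3 in Wt2, and its interval ran from -0.98 to 0.98. Both intervals leave out a 2-fold change. Itgb4, the partner of Itga6 in the hemidesmosomes of epithelia, was near background in 3 pools and reached 95.0 in Cyc2.

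Itga3, which binds laminins of basement membranes, varied little except for a low value in Wt2. Probe set 1455158_at read 147.8 in Cyc1, 161.1 in Cyc2, 156.1 in Wt1 and 96.4 in Wt2. The log2 fold change was 0.29 ± 0.30, from -0.07 within experiment 1 to 0.66 within experiment 2, and when Wt2 was left out it was -0.01. The other 2 probe sets of Itga3 lay at 19.1 or less.

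Itga7, a laminin receptor chain best known from skeletal, cardiac and smooth muscle, was highest in Cyc2. It read 81.8 in Cyc1, 230.6 in Cyc2, 67.0 in Wt1 and 115.4 in Wt2, so Cyc1 lay between the Wt pools. The log2 fold change was 0.57 ± 0.53, with 0.24 within experiment 1 and 0.91 within experiment 2. Its interval, from -0.83 to 1.98, reaches past a 2-fold rise and includes 0 (limma, adjusted p = 1).

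**Figure D2:**
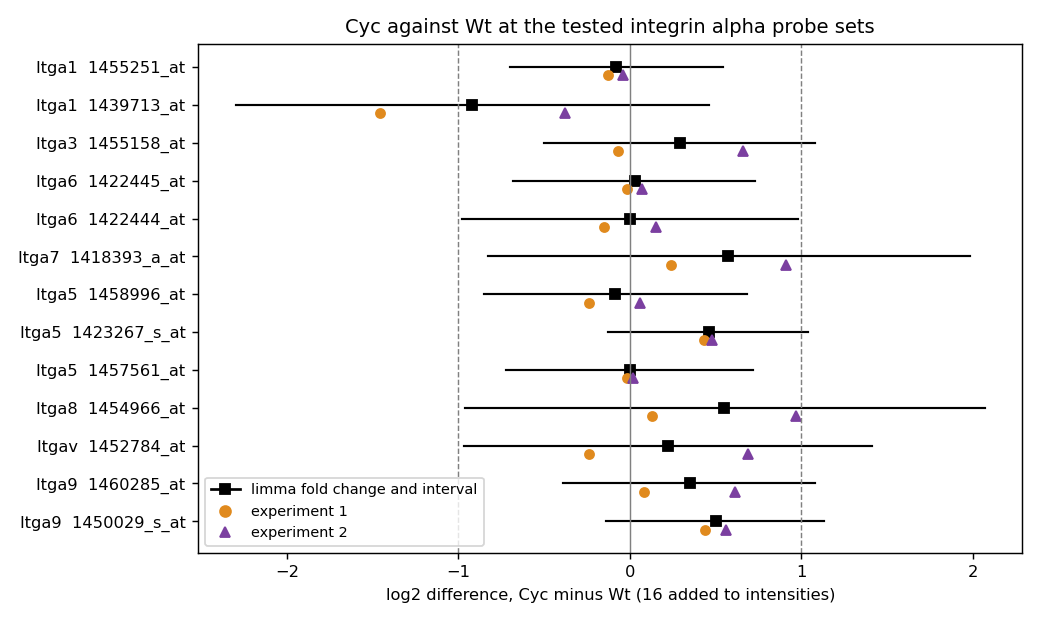
Log2 difference between Cyc and Wt (16 added to intensities) at the 13 integrin alpha probe sets read, with the limma fold change (black square), its 95% interval (line) and the differences within experiments 1 (orange circle) and 2 (purple triangle), and dashed lines at 2-fold. All intervals include 0, and 5 of the 13, at Itga1, Itga5 and Itga6, lie inside the dashed lines.

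The chains that bind the RGD motif, Itga5, Itga8 and Itgav, were all read. Itga5 is the chain of the classical fibronectin receptor, and its probe set 1458996_at read 96.0 in Cyc1, 146.1 in Cyc2, 116.1 in Wt1 and 139.1 in Wt2. The log2 fold change was -0.09 ± 0.29, with an interval from -0.85 to 0.68 that leaves out 2-fold on the scale with 16 added. At such low intensities the added 16 makes fold changes too small, so a 2-fold fall in intensity is not excluded. Probe set 1457561_at likewise overlapped between genotypes, at 51.4 in Cyc1, 71.2 in Cyc2, 52.3 in Wt1 and 70.2 in Wt2, with a log2 fold change of 0.00 ± 0.27. The third, 1423267_s_at, was higher in both Cyc pools, at 77.6 in Cyc1, 85.2 in Cyc2, 53.3 in Wt1 and 56.6 in Wt2. Its log2 fold change of 0.46 ± 0.22 passed neither threshold, and this order of the pools was found at 15.1% of all probe sets read. By Affymetrix naming, an _s_at set can match transcripts of more than 1 gene. The last Itga5 probe set lay at 15.8 or less.

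Itgav, the chain shared by the receptors for vitronectin, fibronectin and latent TGF-β, had its highest and its lowest value in Cyc pools. It read 715.6 in Cyc1, 1652.1 in Cyc2, 849.7 in Wt1 and 1020.6 in Wt2. The direction thus turned between the experiments, from -0.24 to 0.69 on the log2 scale, and the fitted value was 0.22 ± 0.45 with an interval from -0.97 to 1.41. The other 4 probe sets lay near background at 27.5 or less, so the level of Itgav rests on 1 of 5 probe sets.

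Itga8, a chain of smooth muscle and other contractile stromal cells whose main ligand is nephronectin, stood highest in Cyc2, as Itga7 did. It read 111.2 in Cyc1, 342.4 in Cyc2, 99.8 in Wt1 and 166.6 in Wt2. The log2 fold change was 0.55 ± 0.58, with 0.13 within experiment 1 and 0.97 within experiment 2, and a second probe set lay at 21.8 or less. When Cyc1 was left out, Itga7 and Itga8 came to 1.24 and 1.30 and passed the thresholds (limma, unadjusted p = 0.0178 and 0.0142), as did 3.10% of all probe sets read. When Cyc2 was left out, they came to -0.09 and -0.19. Each of these fits sets 1 experiment of a genotype against both of the other without a block, so differences between experiments enter the fold change.

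Itga4 and Itga9 form a subfamily with shared ligands such as Vcam1. Itga9, found on smooth muscle, lymphatic endothelium and epithelia, was higher in both Cyc pools at the 2 probe sets that were read. Such an order of the pools was found at 15.1% of all probe sets read. The 2 probe sets read the same gene on the same arrays and are not independent. Probe set 1460285_at read 356.0 in Cyc1, 520.4 in Cyc2, 334.8 in Wt1 and 336.0 in Wt2, a log2 difference of 0.35 ± 0.28. Probe set 1450029_s_at read 216.5 in Cyc1, 264.3 in Cyc2, 155.7 in Wt1 and 174.4 in Wt2, a difference of 0.50 ± 0.24 that was alike within both experiments, at 0.44 and 0.56. Neither passed the thresholds (limma, adjusted p = 1), and the latter had an unadjusted p of 0.0436 and an adjusted p of 0.707 in the limma fit with the block. Like the _s_at set of Itga5, 1450029_s_at can by its name match transcripts of more than 1 gene. The third probe set lay at 8.5 or less.

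Itga4, a chain of leukocytes that binds Vcam1 and fibronectin, crossed 50 in Cyc2 alone and was not tested. It read 8.1 in Cyc1, 68.2 in Cyc2, 10.3 in Wt1 and 14.0 in Wt2, and its other 4 probe sets lay at 23.2 or less. Leukocyte genes were highest in the same pool, with a summed intensity of 6 listed genes of 568.9 in Cyc1, 1311.8 in Cyc2, 420.1 in Wt1 and 490.5 in Wt2. All 6 were read in Cyc2, with Ptprc at 367.1 there and between 92.1 and 158.8 in the other pools. Their part in the Itga4 signal was not tested.

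Across all members, 13 of 28 probe sets were read, against 45.9% of the array, and none of the 13 rose or fell. Of all 20680 probe sets read, 0.851% passed the thresholds, 0.735% higher and 0.116% lower in Cyc, and at this rate a count of 0 in 13 is no result about integrins. No member had an unadjusted p under 0.05 (limma), as 1.99% of all probe sets did, and every adjusted p on the array was 1. In the fit with the block again none passed, against 1.15% of all, and 2 of 13 had an unadjusted p under 0.05, against 6.98%.

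The 13 probe sets had a median log2 fold change of 0.22 with 8 above 0, where all probe sets read had -0.02 with 9729 of 20680 above 0. At 1 probe set each, the 8 genes read had a median of 0.26. Within experiment 1 it was -0.05, with Cyc above Wt for 3 of the 8, against -0.10 and 38.2% over the array. Within experiment 2 it was 0.63, with Cyc above Wt for 7 of the 8, against 0.06 and 58.8%. As the genes were chosen with results of these arrays known, this is a description only.

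Much of the variation followed the experiment and the pool Cyc2. All 13 probe sets were brighter in Cyc2 than in Cyc1 and 12 in Wt2 than in Wt1, where 77.2% and 69.5% of all probe sets read were, and the exception was Itga3. Cyc2 held the highest of the 4 values for 7 of the 8 genes, and for 44.4% of the array. Itga1 was the exception, with its highest value in Wt2.

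Genes of smooth muscle and pericytes were also highest in Cyc2. Myh11, the smooth muscle myosin, read 317.3 in Cyc1, 1715.7 in Cyc2, 300.1 in Wt1 and 732.1 in Wt2. The 6 listed genes summed to 11124.3 in Cyc1, 20834.0 in Cyc2, 9775.9 in Wt1 and 13826.8 in Wt2, with Cnn1 near background throughout, and none of the 5 tested passed the thresholds. Endothelial markers summed to 28947.6 in Cyc1, 31322.0 in Cyc2, 32654.0 in Wt1 and 34513.8 in Wt2, and none passed. The genotypes overlapped for 4 of the 6. Kdr and Emcn were lower in both Cyc pools than in both Wt pools, an order found at 8.23% of all probe sets read. Their median log2 fold change as a list was -0.20, and 0 of the 6 had Cyc above Wt within either experiment, against 38.2% and 58.8% over the array. Fibroblast markers summed to 26846.2 in Cyc1, 28727.3 in Cyc2, 28649.6 in Wt1 and 18227.4 in Wt2. Of these 6 genes Col1a1 rose, beside 0.735% higher over the array. The same Col1a1 probe set is counted again among the matrix ligands below. The part of these cell types in the integrin values was not tested.

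**Figure D3:**
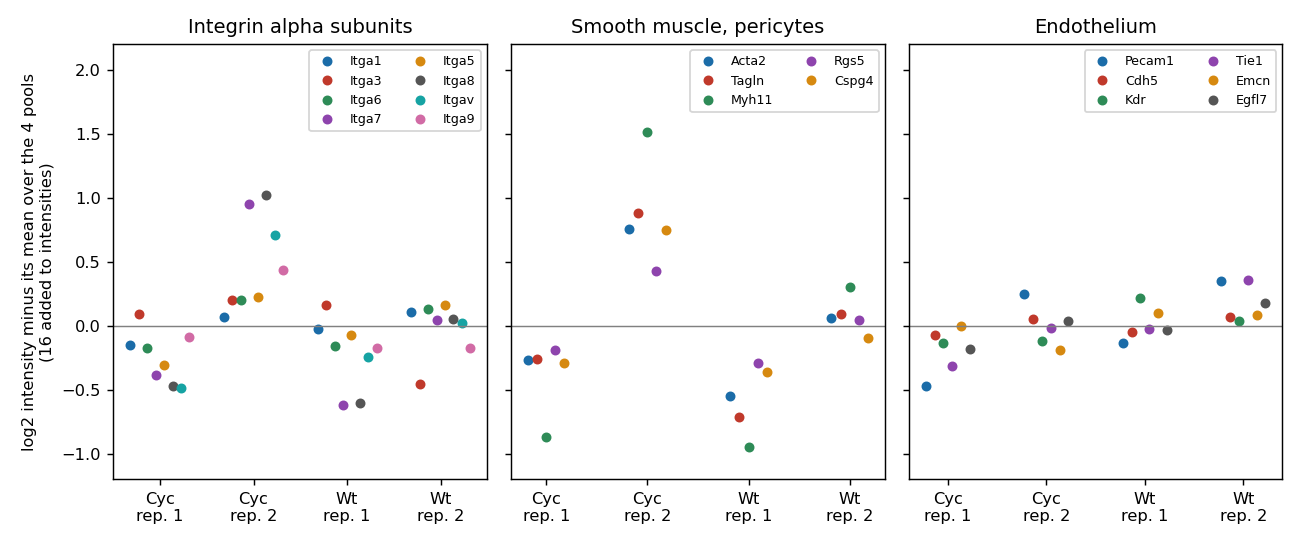
Log2 intensity of each gene minus its mean over the 4 pools (16 added to intensities), 1 point per gene, for the 8 integrin alpha genes read, 5 smooth muscle and pericyte genes and 6 endothelial genes. Of the 8 integrin alpha genes, all but Itga1 are highest in Cyc replicate 2, as are the 5 smooth muscle and pericyte genes. Over the array 44.4% of the probe sets read have their highest value there. Itga1 and the endothelial genes Pecam1, Cdh5, Tie1 and Egfl7 are highest in Wt replicate 2, and Kdr and Emcn in Wt replicate 1.

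Among the beta chains, which complete the receptor, Itgb2 rose and the other 3 genes tested did not pass at their main probe set. Itgb1, the partner of all 10 alpha chains, read 1224.5 in Cyc1, 1764.2 in Cyc2, 1040.1 in Wt1 and 1119.4 in Wt2. At all 4 of its tested probe sets both Cyc pools exceeded both Wt pools, an order found at 15.1% of all probe sets read. The log2 fold changes, from 0.44 to 0.80, did not pass (limma, unadjusted p from 0.101 to 0.181). These 4 probe sets read the same gene on the same arrays and are not independent.

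Itgb5, which pairs with Itgav into a vitronectin receptor, read 1083.6 in Cyc1, 1926.8 in Cyc2, 772.6 in Wt1 and 712.5 in Wt2. Here the log2 fold change of 0.95 ± 0.35 missed the 2-fold threshold. Of its other 3 probe sets, 1456133_x_at and 1456195_x_at passed at 1.07 and 1.01, beside 0.735% higher over the array. The last one, 1417534_at, did not pass (0.72 ± 0.41). All of them read the same gene on the same arrays and are not independent. The study names Itgb2 and Itgb5 as changed on these same arrays, so these values are not independent evidence. Itgb8, another partner of Itgav, read 56.2 in Cyc1, 182.4 in Cyc2, 88.0 in Wt1 and 84.6 in Wt2, with a log2 fold change of 0.23 ± 0.53. Itgb3 crossed 50 in Cyc2 alone, at 60.0, and Itgb6 and Itgb7 were near background in all pools.

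Itgb2 is the beta chain of leukocytes and pairs with none of the 10 alpha chains. It read 67.5 in Cyc1, 142.4 in Cyc2, 34.0 in Wt1 and 29.4 in Wt2. As both Wt pools lay under 50, it was at least 1.96-fold higher in Cyc, taking Wt at 50 (limma, adjusted p = 1). When any of Cyc2, Wt1 or Wt2 was left out, it no longer passed the thresholds. Of the 6 leukocyte markers, Cd52 and Tyrobp also rose and none fell, beside 0.735% higher over the array. Tyrobp also lay under 50 in both Wt pools, at 39.6 in Wt1 and 24.0 in Wt2. The part of leukocytes in the Itgb2 signal was not tested. Of the alpha chains that pair with Itgb2, Itgam and Itgax were near background, and Itgal reached 82.4 in Cyc2 alone.

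Among 28 listed ligands of the integrins, 25 have a probe set with their symbol alone and 22 were tested. Col1a1 and Col5a2, chains of fibrillar collagen, and Svep1, a large matrix protein bound by the Itga9 receptor, rose, and none fell. These 3 of 22 stand beside 0.735% higher over the array. The median log2 fold change was 0.20, and 21 of the 22 were above 0, against -0.02 and 9729 of 20680 over the array. Within experiment 1 the median was 0.16 with 15 of 22 above 0, and within experiment 2 it was 0.48 with 20. All 3 genes that rose are named by the study from these arrays, so the count is not independent evidence.

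Svep1 read 202.5 in Cyc1, 551.4 in Cyc2, 131.4 in Wt1 and 75.5 in Wt2, a log2 fold change of 1.60 ± 0.55 that came to 0.57 within experiment 1 and 2.63 within experiment 2. Emilin1, another ligand of the Itga9 receptor, read 701.2 in Cyc1, 967.1 in Cyc2, 405.8 in Wt1 and 462.4 in Wt2, and at 0.90 ± 0.27 it missed the 2-fold threshold. Tnc, a tenascin bound by the same receptor, overlapped between genotypes, with 61.4 in Cyc1, 113.0 in Cyc2, 76.9 in Wt1 and 46.7 in Wt2. Vcam1 did so too, with 734.8 in Cyc1, 1502.7 in Cyc2, 953.0 in Wt1 and 1074.4 in Wt2.

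Of the collagens, Col5a2 read 2342.9 in Cyc1, 2703.3 in Cyc2, 1379.8 in Wt1 and 835.0 in Wt2, a log2 fold change of 1.22 ± 0.33. Col1a1 read 456.1 in Cyc1, 905.5 in Cyc2, 321.3 in Wt1 and 242.5 in Wt2, a log2 fold change of 1.16 ± 0.40. A second probe set of Col1a1, 1423669_at, overlapped between genotypes, at 380.5 in Cyc1, 771.7 in Cyc2, 470.3 in Wt1 and 292.0 in Wt2, and did not pass (0.53 ± 0.45). Col1a2, the partner chain of Col1a1, did not pass at its main probe set (0.69 ± 0.34) but did at 1423110_at (1.34 ± 0.36). Beside them stand -0.08 and -0.92 at the 2 probe sets of Itga1, the collagen-binding member that was read. Col4a1, of basement membrane, read 11126.6 in Cyc1, 10553.6 in Cyc2, 9650.6 in Wt1 and 10179.8 in Wt2, which is 0.13 ± 0.22. When Wt2 was left out none of the ligands passed, when Cyc2 was left out Col5a2 alone did, and when Wt1 was left out Col1a1 did not.

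Of 10 laminin chains, 7 were tested and none passed. Lama4, a chain of blood vessels, read 2179.3 in Cyc1, 2231.4 in Cyc2, 2036.7 in Wt1 and 1893.4 in Wt2, a log2 fold change of 0.17 ± 0.22. Fn1, which encodes fibronectin, had its highest and lowest values in Cyc pools, as Itgav did. It read 1646.5 in Cyc1, 4738.0 in Cyc2, 2323.0 in Wt1 and 2768.7 in Wt2, with -0.49 within experiment 1 and 0.77 within experiment 2. Npnt, the nephronectin gene, overlapped between genotypes, with 124.9 in Cyc1, 141.0 in Cyc2, 95.5 in Wt1 and 157.7 in Wt2.

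Of the adaptors and kinases of cell adhesions, such as talins, kindlins and parvins, none of 18 tested genes passed the thresholds. Over the array 0.851% of the probe sets read passed. The median log2 fold change of these genes was -0.03, against -0.02 over the array. Tln1, the talin that links beta tails to actin, read 871.9 in Cyc1, 1026.8 in Cyc2, 977.5 in Wt1 and 799.6 in Wt2. Fermt3, the kindlin of blood cells, had a log2 fold change of 0.65 ± 0.29, and Fermt2, the kindlin of most other cells, of -0.22 ± 0.26.

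**Figure D4:**
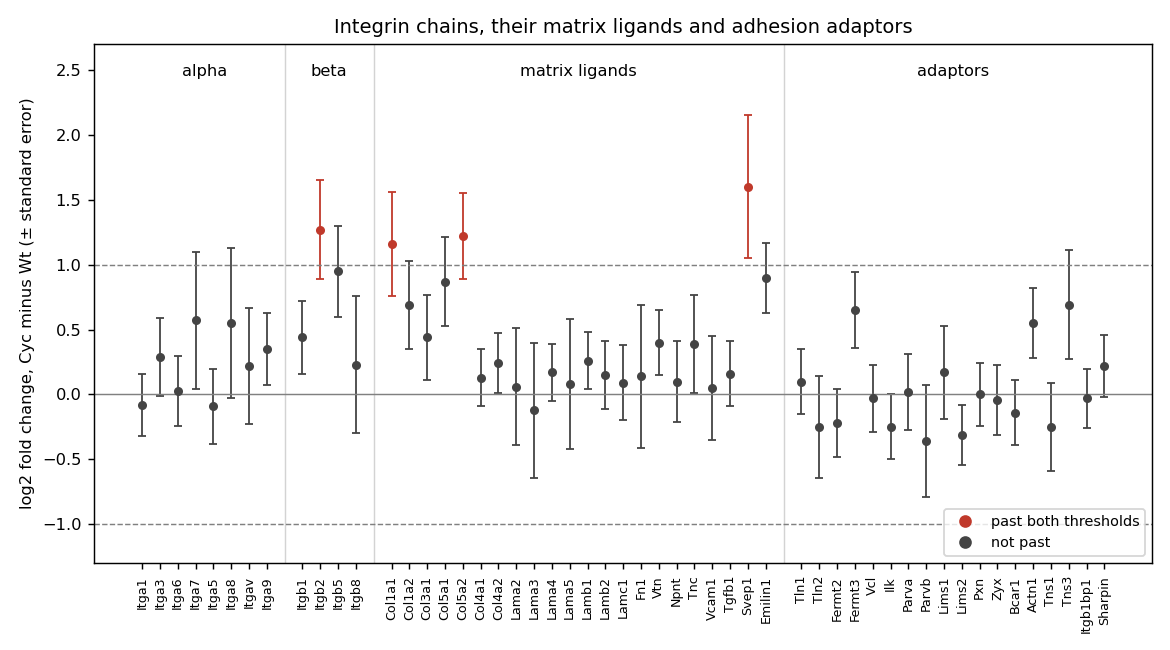
Log2 fold change between Cyc and Wt (16 added to intensities) with its standard error from limma for tested genes at 1 probe set each, grouped into integrin alpha and beta chains, matrix ligands and adhesion adaptors, with dashed lines at 2-fold. Itgb2, Col1a1, Col5a2 and Svep1 (red) passed both thresholds, and the 8 integrin alpha genes lie between -0.09 and 0.57.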

How the data were processed

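The authors normalized the array files in Resolver 7.2 and deposited probe set intensities on a linear scale, of which between 5784 and 7231 per array are negative. The background correction and summary method are not given in the sources used here. Here 64 control probe sets were left out, negative values were raised to 0, and log2 was taken after adding 16, which makes fold changes of dim genes too small. Probe sets that reached 50 on 2 or more arrays, 20680 in all, entered limma (version 3.58.1, R 4.3.3; two-sided, 2 residual and 2.68 prior degrees of freedom), with adjustment after Benjamini and Hochberg over all of them. Resolver's error model was not run, but calls use the fold (2) and unadjusted p (0.05) limits stated in the study's methods. The script was tested on simulated data. The number of arrays limits the precision, and nothing in the files gives a depth.

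Gene symbols came from the platform's annotation, where 34945 probe sets have 1 symbol, 932 several and 9160 none. The Ly6a probe set was named from the study's own table. A gene is represented by the probe set of highest mean among those with its symbol alone. The members, the lists of other alpha chains, beta chains, ligands, adaptors and cell type markers, and the alternatives were chosen with earlier results of these data known. The text names all members, genes of the other lists past the thresholds, and partners or ligands of a member. Also named are the transgenes and some cell type markers, while Fermt2, Fermt3, Tln1 and alpha chains outside the set were named after their values were seen. The labels speak of 2 independent experiments, the deviations of same-numbered arrays correlated at 0.447, and the median poly-A control was 258.8 in Cyc1 and 231.9 in Wt1 but -0.9 in Cyc2 and 0.3 in Wt2. The replicate number was therefore also fitted as a block. Other alternatives were pseudocounts of 1 and 50, filters, quantile and median normalization, an intensity trend, the mean of a gene's probe sets, ratios of arithmetic means and leaving out each array. Which genes neighbour each other was taken from RefSeq.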

Additional observations from a re-analysis of the deposited data

How the results depend on the processing

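The number of integrin alpha genes read was 8 at a minimum of 25 or 100, with 50 on all 4 arrays and without each array in turn. The number of integrin alpha probe sets past the thresholds was 0 under all settings run, the replicate block included, except for 0 to 2 when each array was left out. The replicate block changed no call of an alpha, beta, ligand or adaptor gene and left the median of the alpha genes at 0.26, which ran from -0.18 to 0.48 without each array. The count of beta genes that passed, 1, was 0 with a pseudocount of 50, without a filter and with a filter at 100, and 0 to 2 without each array. That of ligands, 3, was 1 without a filter and 0 to 5 without each array, and that of adaptors, 0, was 0 to 1. Without each array in turn the log2 fold changes ran from -0.19 to 0.03 for Itga1, -0.01 to 0.60 for Itga3, -0.35 to 0.18 for Itga5, -0.16 to 0.22 for Itga6, -0.09 to 1.24 for Itga7, -0.19 to 1.30 for Itga8, -0.37 to 0.82 for Itgav and 0.08 to 0.61 for Itga9, so the sign turned for all but Itga9. With quantile normalization Itga6 was at -0.03, with and without the replicate block, and with the mean of all probe sets Itga5 was at 0.12 and Itga1 at -0.50. The cause of these changes was not tested. With 2 pools per genotype, a change of 2-fold lies within the interval at 8 of the 13 probe sets tested.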

Other observations

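Of 8 listed integrin alpha chains outside the matrix-binding set, 6 have a probe set with their symbol alone and 3 were tested, none of which passed the thresholds, with a median log2 fold change of 0.21. Itga2b, the alpha chain of the platelet fibrinogen receptor, read 111.0 in Cyc1, 102.2 in Cyc2, 130.6 in Wt1 and 87.7 in Wt2, a log2 fold change of -0.01 ± 0.28. Itgae, a chain of T cells in epithelia, lay close to the minimum of 50, with 59.4 in Cyc1, 58.5 in Cyc2, 47.2 in Wt1 and 48.1 in Wt2.

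The remaining cell type markers were as follows. The 6 cardiomyocyte genes summed to 1742.9 in Cyc1, 1148.8 in Cyc2, 2490.6 in Wt1 and 1559.0 in Wt2. Of 5 tested Myl2 fell and none rose, beside 0.116% lower and 0.735% higher over the array. The 4 platelet genes summed to 521.4 in Cyc1, 312.2 in Cyc2, 500.3 in Wt1 and 448.9 in Wt2, and the 4 mesothelial genes to 583.6 in Cyc1, 1793.7 in Cyc2, 1039.1 in Wt1 and 660.3 in Wt2, with no gene past the thresholds. None of 3 tested airway genes passed either. Of 5 Schwann cell genes, 3 have a probe set with their symbol alone and only Cnp was read.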
